A study of Mus musculus with 4 samples.

Results

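The proliferation and DNA replication genes described here are 35 genes taken by symbol from the 28006 features of the count tables, and all 35 were detected. The replication members are 15 genes of DNA synthesis and its onset (*Mcm2*, *Mcm3*, *Mcm4*, *Mcm5*, *Mcm6*, *Mcm7*, *Gins2*, *Cdc6*, *Ccne1*, *Ccne2*, *Pcna*, *Tyms*, *Rrm1*, *Rrm2* and *Tk1*). The mitotic members are 20 genes of chromosome condensation, spindle assembly and mitotic exit (*Mki67*, *Top2a*, *Birc5*, *Cdk1*, *Ccnb1*, *Ccnb2*, *Ccna2*, *Cenpf*, *Cenpe*, *Cenpa*, *Aurka*, *Aurkb*, *Bub1*, *Bub1b*, *Plk1*, *Ube2c*, *Cdc20*, *Tpx2*, *Nusap1* and *Kif11*). The measurements address which mesenchymal and hematopoietic cells of the femur express these genes, and how their levels in the ablated femur (ABL) compare with those in the contralateral femur (CONT).

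Cells that enter the cycle first make E-type cyclins and load the MCM helicase onto DNA with CDC6, then copy their DNA with the sliding clamp PCNA and with nucleotides supplied by ribonucleotide reductase (*Rrm1*, *Rrm2*), thymidylate synthase (*Tyms*) and thymidine kinase (*Tk1*). The mitotic genes are switched on later, when cyclin A and B complexes of CDK1 drive the cell into mitosis, kinetochore and spindle proteins separate the chromosomes, and *Cdc20* and *Ube2c* serve the anaphase-promoting complex that ends mitosis. In adult marrow, erythroid, granulocyte and B cell precursors are known for rapid division, while most stromal cells divide rarely.

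tdTomato+ cells were sorted from femurs of mice of the genotype Cxcl12-iCreER; R26R(tdTomato/+), in which tamoxifen activates a recombinase under *Cxcl12* control on a bacterial artificial chromosome and thereby switches on the tdTomato reporter in *Cxcl12*-expressing reticular stroma. Both groups received tamoxifen 7 days before surgery and were analysed 7 days after it, and the groups differed in that ABL femurs had their marrow mechanically removed while CONT femurs were left unoperated. Each group had 1 library in each of 2 biological replicates, 4 libraries in all, profiled by droplet-based 3′ single-cell RNA-seq. The first replicate combined cells of 7 mice and used Chromium v2 chemistry, and the second used v3, so replicate and chemistry cannot be told apart. The p-values rest on these 4 libraries only, and edgeR shares the spread between libraries across genes.

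The files hold raw counts of unique molecular identifiers (UMIs, 1 per captured transcript), with library totals from 22889380 to 44784072, and 1459 to 3433 barcodes per library were taken as cells, with median UMIs per cell from 5714 to 12896. Libraries of the same replicate shared 5 and 1 cell barcodes, where independent draws would give 6.79 and 0.898. No pair across replicates shared any, but these differ in their barcode lists (737280 barcodes in replicate 1 and 6794880 in replicate 2), so no expected number is given. Scrublet marked 0.0832% to 2.45% of the cells as doublets, which stayed in. The libraries of replicate 2 differed in sex-linked RNA. *Xist* was found in 71.9% of the mesenchymal cells of CONT and in 0.0554% of those of ABL, and a Y-linked UMI in 26.5% and 70.6%. This is not what both femurs of the same animals would give, so in replicate 2 sex and condition cannot be told apart. In replicate 1 *Xist* was found in 49.7% and 81.0% and a Y-linked UMI in 29.6% and 15.8%, so CONT and ABL differed there too. The part of sex in the replicate 1 values was not tested. The results are therefore given per replicate and without single libraries where these decide a value. Mesenchymal cells numbered 1287, 669, 2052 and 1804 in CONT replicate 1, ABL replicate 1, CONT replicate 2 and ABL replicate 2, the order kept for all lists of 4 values below, and hematopoietic cells numbered 2046, 728, 327 and 614. A *tdTomato* UMI was found in 95.7% to 97.7% of mesenchymal cells and in 30.6% to 61.2% of hematopoietic cells, and the part of free reporter RNA in the latter was not tested.

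All 35 members were expressed at a higher level in hematopoietic than in mesenchymal cells in each of the 4 libraries. The 20 mitotic members together reached 2094, 1677, 4400 and 1847 CPM (UMIs per 1000000 UMIs of the cells) in hematopoietic cells, against 184, 261, 22.5 and 302 CPM in mesenchymal cells. The 15 replication members reached 1138, 1116, 1529 and 1124 CPM in hematopoietic cells, against 183, 215, 146 and 185 CPM in mesenchymal cells. For neither group of genes did the lineages overlap, and in mesenchymal cells the mitotic sum of CONT replicate 2 lay far below the other 3 libraries while its replication sum did not.

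**Figure D1:**
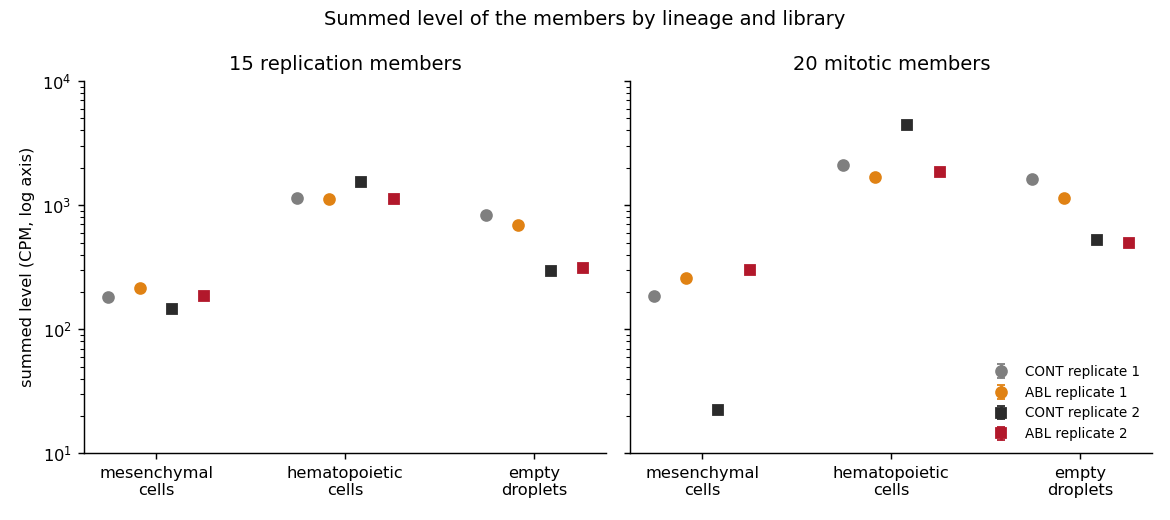
Summed level of the 15 replication members (left) and the 20 mitotic members (right) in CPM on a log axis, for mesenchymal cells, hematopoietic cells and empty droplets (at most 300 UMIs) of each library. Points are libraries and bars are 95% exact Poisson intervals, most of them narrower than the points. Hematopoietic cells lie above mesenchymal cells in every library, and the mitotic sum of CONT replicate 2 is the lowest, at 22.5 CPM in mesenchymal cells.

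In a fit of both lineages with the library as a block (edgeR quasi-likelihood test with Benjamini-Hochberg adjustment over 12389 genes), all 35 members were higher in hematopoietic cells, where 26.9% of all genes tested were called higher and 59.9% were called either way. The median log2 difference of the members was 3.94, beside −0.08 over all genes, with 3.69 for the replication and 4.09 for the mitotic members. The largest difference was that of *Nusap1*, a microtubule-binding protein of the spindle, with a log2 difference of 5.02 ± 0.83 (SE, adjusted p = 0.00372 in the edgeR fit, 4 libraries). *Rrm2*, the regulated subunit of ribonucleotide reductase, followed with 4.76 ± 0.70, the mitotic kinase *Aurka* with 4.65 ± 0.68, the proliferation marker *Mki67* with 4.61 ± 1.05 and the licensing factor *Cdc6* with 4.57 ± 0.74. *Aurka* stood at 34.7, 34.8, 42.9 and 23.5 CPM in hematopoietic cells and at 1.35, 2.59, 0.399 and 2.90 CPM in mesenchymal cells. The smallest differences belonged to *Gins2* (1.99), *Mcm4* (2.02), *Pcna* (2.08), *Mcm7* (2.33) and *Rrm1* (2.50), all replication members. Of the 107 other cell cycle genes listed for comparison, 106 were higher in hematopoietic cells and *Anln* was not called, and the largest were the S-phase regulators *E2f2* (5.60), *Esco2* (5.18) and *E2f8* (4.98), the cyclin *Ccnf* (5.07) and the condensin subunit *Ncapg* (4.95). The call of all 35 held without either replicate 2 library, while 34 were called without ABL replicate 1, 27 without CONT replicate 1 and 31 after subtraction of free RNA. Shares of all genes called are not given for these fits, so their counts alone do not set the members apart from other genes.

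Within the hematopoietic cells, the level of the members differed between classes. To compare cells of unequal depth, each cell was thinned to 2000 UMIs and counted when UMIs of at least 3 members remained. By this count, 36.9%, 27.8%, 37.9% and 33.6% of hematopoietic cells expressed 3 or more members, against 2.72%, 4.63%, 0.244% and 4.71% of mesenchymal cells. Without thinning the shares were 51.3%, 45.7%, 51.1% and 55.9% in hematopoietic cells and 19.7%, 34.4%, 23.1% and 23.6% in mesenchymal cells, at median depths of 7210, 7829, 14650 and 11120 UMIs in the former and 4574, 7067, 12790 and 12870 in the latter.

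Erythroid-like cells had the highest share of a named class in both replicate 2 libraries. They expressed 3 or more members in 64.7%, 49.3%, 95.3% and 93.3% of cells, and their mitotic sum was 3404, 2763, 9362 and 5358 CPM, lower in ABL than in CONT in both replicates. In replicate 1 the clusters that made up the class differed between CONT and ABL, as given below. In this class *Mki67* reached 274, 243, 2861 and 866 CPM. Granulocyte precursor-like cells were named in replicate 1 only, in clusters of unlike makeup. The CONT cluster was led by *Elane*, *Nkg7* and *Mpo*, at a median of 17600 UMIs. The ABL cluster, at 8595 UMIs, also had *Prss34* and *Mcpt8* among its leading genes, which in CONT led a cluster without a class name (share 66.7%). Granulocyte precursor-like cells held 3 or more members in 81.3% of 75 CONT cells and 45.7% of 81 ABL cells, the former the highest share of a named class in CONT replicate 1. B cell-like cells held them in 59.6% and 55.9% of cells in replicate 1 and in 25.0% of the 64 cells of CONT replicate 2, with a mitotic sum of 4517, 3727 and 3940 CPM, and *Top2a*, the topoisomerase that untangles replicated chromosomes, stood at 504, 484 and 772 CPM there. In ABL replicate 1 theirs was the highest share of a named class. Clusters without a class name also held many of the hematopoietic cells with 3 or more members. In CONT replicate 1 a cluster led by *Ccl3*, *Mcpt8* and *Prss34* held 118 of 754 such cells. A cluster led by *Elane*, *Prtn3* and *Fcnb* held 47 of 124 in CONT replicate 2, and one led by *Jchain*, *Elane* and *Prtn3* held 60 of 206 in ABL replicate 2, above the 42 of its erythroid-like cells.

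Within these classes the clusters differed by the maturity of their leading genes. In CONT replicate 1, the neutrophil-like cluster led by *Chil3*, *Camp* and *Cebpe*, genes of immature granulocytes, held 3 or more members in 85.3% of cells. The neutrophil-like clusters led by *Ltf* and *Ly6g* and by *Retnlg* and *Il1b* held them in 2.19% and 0.517%. An erythroid-like cluster led by *Car1* and *Klf1* had a share of 99.1%, against 5.45% in the cluster led by *Tmcc2* and *Bpgm*, genes of late erythroid cells. B cell-like cells led by the precursor genes *Vpreb3*, *Vpreb1* and *Igll1* had 69.4%, against 18.8% in those led by *Ms4a1*. In ABL replicate 1, 89.7% of cells in a neutrophil-like cluster led by *Fcnb* and *Chil3* and 0 cells of 132 in the one led by *Retnlg* held 3 or more members. Its erythroid-like clusters were led by *Car1* and *Hemgn* (68 cells, mitotic sum 4610 CPM), *Tmcc2* and *Xpo7* (49, 809 CPM) and *Bpgm* and *Hbb-bs* (29, 220 CPM). Those of CONT replicate 1 were led by *Car1* and *Klf1* (116, 4124 CPM), *Hemgn* and *Rhd* (186, 5133 CPM) and *Tmcc2* and *Bpgm* (165, 510 CPM). The part of this makeup in the lower class sum of ABL was not tested.

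Neutrophil-like cells held 3 or more members in 0 of 113 cells of CONT replicate 2 (95% exact binomial interval up to 3.21%) and in 27.6% of 145 cells of ABL replicate 2, and the shares in replicate 1 were 16.3% and 11.9%. The order of CONT and ABL thus differed between replicates. Each library was clustered alone, and in replicate 2 the class was a cluster led by *Retnlg*, *Mmp8* and *Il1b* in CONT and one led by *Ngp*, *Lcn2* and *Camp* in ABL. Osteoclast-like cells were named in ABL libraries only, where 3 of 20 and 48.7% of 76 cells expressed 3 or more members. Monocyte or macrophage-like cells had 16.7%, 18.6% and, in ABL replicate 2, 8.20%, T or NK cell-like cells of ABL replicate 2 had 24.5%, and dendritic cell-like cells of replicate 1 had 6.67% and 8.33%. The shares of single classes rest on 1 library per group and replicate and were not tested.

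**Figure D2:**
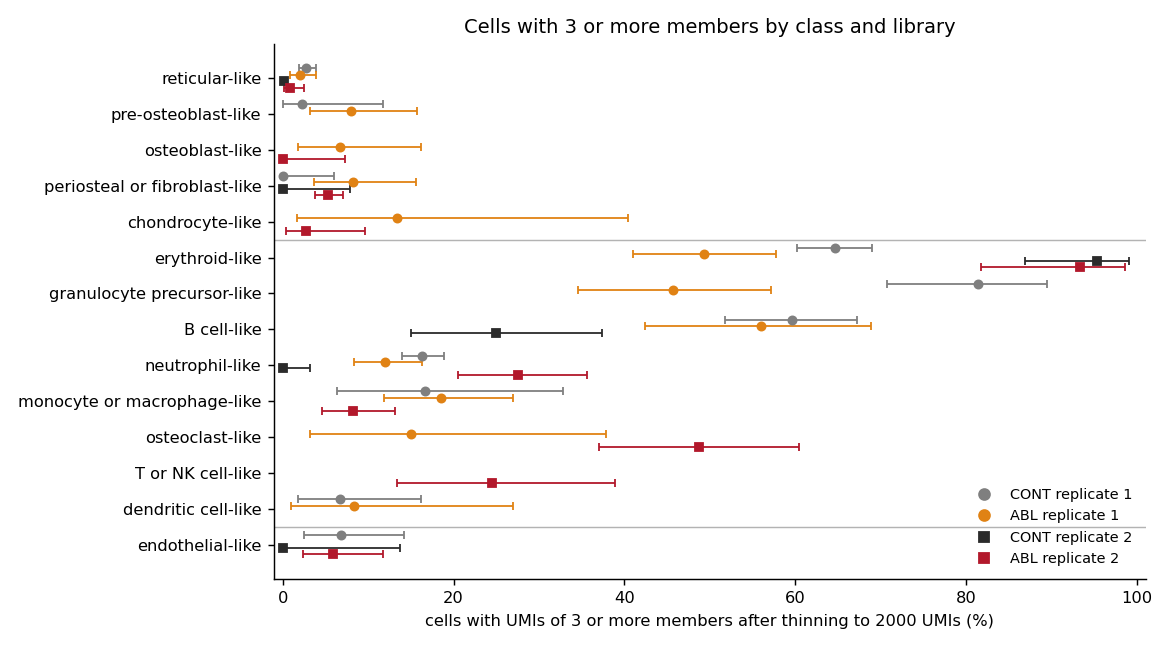
Share of cells with UMIs of 3 or more of the 35 members after thinning to 2000 UMIs, by cell class (mesenchymal classes at the top, hematopoietic classes in the middle, endothelial-like cells at the bottom) and library. Points are libraries with at least 10 cells of the class, and bars are 95% exact binomial intervals that cover counting error only. Erythroid-like cells reach 95.3% while no mesenchymal class drawn passes 13.3%.

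In mesenchymal cells the replication members were led by *Pcna* (chr2:132249162-132253314, minus strand, GRCm38), with 55.7, 57.0, 54.5 and 49.3 CPM. Its 4 values lay within a narrow range. CONT and ABL did not stand apart, while both replicate 1 (v2) values lay slightly above both replicate 2 (v3) values. A 3′ UMI count has 1 end per transcript and no length term, and on this scale *Pcna* was followed by *Rrm1* (16.7, 30.9, 11.9 and 18.7 CPM), *Mcm7* (23.0, 20.03, 19.2 and 15.2), *Mcm4* (12.47, 14.3, 23.2 and 11.3) and *Tyms* (9.31, 17.6, 10.3 and 18.1). *Rrm1* and *Tyms* were higher in ABL than in CONT in both replicates, *Mcm7* was lower in both, and *Mcm4* was highest in CONT replicate 2.

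Among the genes of the G1 to S transition are the E-type cyclins. *Ccne1* stood at 3.91, 4.14, 1.16 and 3.17 CPM and *Ccne2* at 6.46, 4.66, 5.41 and 3.49 CPM. *Ccne2* was lower and *Ccne1* higher in ABL in both replicates, *Ccne1* by little in replicate 1. Neither was called in the fit of ABL against CONT given below (log2 fold change 0.76 ± 0.68 for *Ccne1* and −0.59 ± 0.54 for *Ccne2*). *Cdc6*, which recruits the MCM helicase, was the lowest replication member with 1.95, 1.21, 0.363 and 2.86 CPM, and its order of CONT and ABL differed between replicates. *Gins2*, a subunit of the active replicative helicase, had 8.41, 10.7, 4.54 and 7.76 CPM. The subunits of ribonucleotide reductase differed, *Rrm2* having 17.1, 16.8, 1.78 and 14.3 CPM where *Rrm1* kept 11.9 CPM in CONT replicate 2.

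The mitotic members were led by *Cenpa*, the histone H3 variant of centromeres, with 27.5, 35.4, 1.96 and 33.4 CPM. *Ube2c*, the ubiquitin-conjugating enzyme of the anaphase-promoting complex, had 34.0, 26.4, 0.980 and 34.1 CPM, and *Birc5*, the survivin subunit of the chromosomal passenger complex, 22.8, 31.1, 0.980 and 26.8 CPM. *Top2a* (chr11:98992943-99024189, minus strand) had 9.91, 24.7, 2.79 and 28.6 CPM, and *Cdk1* (chr10:69335146-69352938, minus strand), the kinase that starts mitosis, 11.3, 22.3, 0.726 and 21.4 CPM. For each of these 5 genes CONT replicate 2 was the lowest library, and ABL lay above CONT in both replicates except for *Ube2c* in replicate 1.

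**Figure D3:**
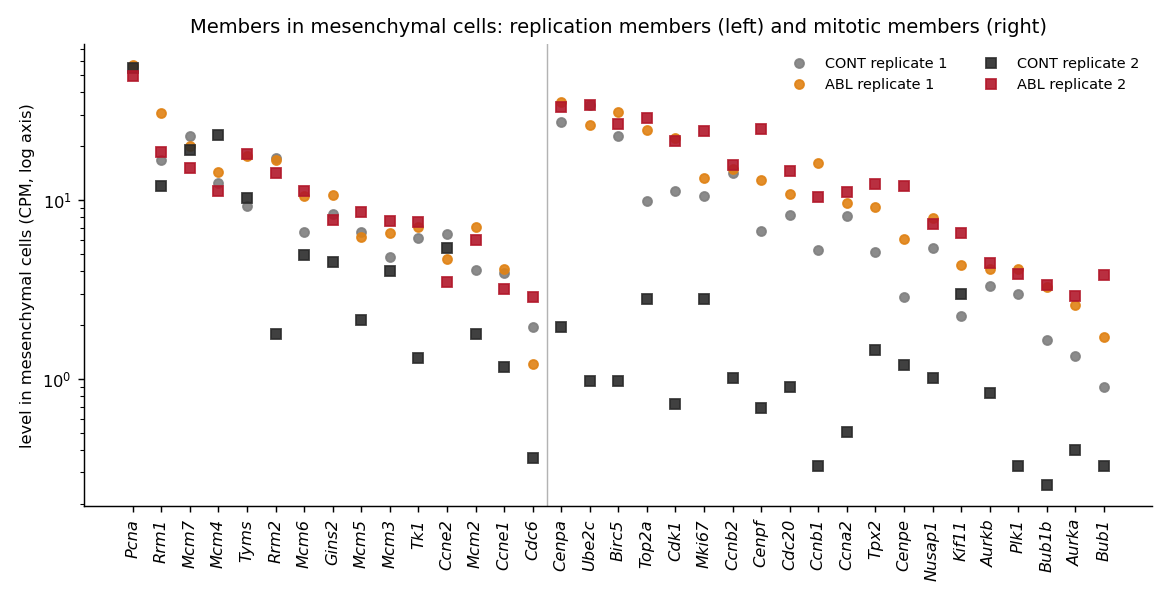
Level of each member in mesenchymal cells of each library in CPM on a log axis, with the 15 replication members on the left and the 20 mitotic members on the right, each ordered by mean level. *Pcna* lies between 49.3 and 57.0 CPM in all 4 libraries, while the mitotic members of CONT replicate 2 (black squares) fall at or below 2.98 CPM.

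Free RNA in the droplets carried the same genes. Empty droplets held a higher level than mesenchymal cells for all 35 members in both replicate 1 libraries and for 34 members in each replicate 2 library, and the mitotic sum in empty droplets was 1618, 1143, 525 and 498 CPM. The share of mesenchymal UMIs that stemmed from free RNA, estimated from 8 markers (*Ptprc*, *Lyz2*, *S100a8*, *S100a9*, *Hba-a1*, *Hbb-bs*, *Cd79a* and *Cd74*), was 8.64%, 7.82%, 2.36% and 4.43%. At these shares free RNA gives a mitotic sum of 140, 89.4, 12.4 and 22.1 CPM, or 75.8%, 34.2%, 55.1% and 7.30% of the measured mesenchymal level, and 39.3%, 25.1%, 4.75% and 7.47% of the replication sum. All 8 markers were detected in the mesenchymal cells of every library, with a summed level from 571 to 18530 CPM. Free RNA thus gave the larger share of the mitotic sum in both CONT libraries and the smaller share in both ABL libraries. In hematopoietic cells it gave 1.17% to 9.50% of the mitotic sum.

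ABL mesenchymal cells had higher levels of most mitotic members than CONT mesenchymal cells. The ABL to CONT ratio of the mitotic sum was 1.42 in replicate 1 and 13.5 in replicate 2, and that of the replication sum 1.17 and 1.26. With the estimated free RNA taken off, the mitotic ratios were 3.85 and 27.7 and the replication ratios 1.45 and 1.23. The mitotic sums left in CONT were 44.6 and 10.1 CPM. No spread of the estimated shares is given, so the size of these mitotic ratios is not settled. In replicate 1, 29 of the 35 members were higher in ABL, with a median ratio of 1.36, and in replicate 2, 31 of 35 with a median ratio of 7.88. In both replicates 27 members were higher, 19 of the 20 mitotic and 8 of the 15 replication members. The share of all genes higher in both replicates is not given here. Mesenchymal cells with 3 or more members after thinning were 35 of 1287, 31 of 669, 5 of 2052 and 85 of 1804. Of these, 25, 14, 3 and 18 held exactly 3 members, and the part of free RNA and counting scatter in them was not tested. With 2 or more members the shares were 14.76%, 13.75%, 4.29% and 8.48%, so that the order of CONT and ABL in replicate 1 turned. With 5 or more members they were 0.311%, 1.495%, 0.0487% and 3.27%. With 3 or more members after thinning to 1000 UMIs they were 0.544%, 2.39%, 0.0975% and 2.88%. In both of these ABL lay above CONT in each replicate. A sum over a lineage does not tell a larger share of dividing cells from more RNA per dividing cell. The class makeup of the mesenchymal cells also differed between CONT and ABL. Reticular-like cells were 1157 of 1287, 400 of 669, 1969 of 2052 and 347 of 1804, and periosteal or fibroblast-like cells numbered 59, 97, 45 and 794. The part of this makeup in the ratios and fold changes of the lineage was not tested.

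The edgeR quasi-likelihood test with the replicate as a block, fitted over 13623 genes, called none of the 35 members at an adjusted p of 0.05, where 1.95% of all genes were called (1.45% higher and 0.506% lower). At an unadjusted p under 0.05 there were 17 members, all of them mitotic and higher in ABL, and DESeq2 called 5. After subtraction of free RNA, edgeR called 17 of 34 members tested, with a median log2 fold change of 2.74. The amounts subtracted are estimates without a given spread. Shares of all genes are not given for these 3 counts, so they alone do not set the members apart from other genes. Of the 35 members, 31 had a positive log2 fold change, with a median of 1.68 (0.76 for the replication and 2.19 for the mitotic members) beside −0.06 over all genes. A fit that leaves out 1 library has no block, and without the block alone the median was 1.11. Without CONT replicate 2 the median was 0.50, with 1 member at an unadjusted p under 0.05, without ABL replicate 2 it was 0.95 and without CONT replicate 1 it was 2.71.

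The largest change was that of *Ccnb1* (chr13:100778650-100786570, minus strand), the main mitotic cyclin, whose level was 5.26, 16.1, 0.327 and 10.5 CPM. ABL exceeded CONT in both replicates, and each ABL value lay above each CONT value. Its log2 fold change was 3.12 ± 0.78 (SE, adjusted p = 0.0670 in the edgeR fit). *Cenpf* (chr1:189640606-189688086, minus strand), a kinetochore protein, had 6.76, 12.95, 0.690 and 25.0 CPM and a log2 fold change of 2.98 ± 0.90 (adjusted p = 0.117 in the edgeR fit), and *Cdk1* had 2.80 ± 0.82 (adjusted p = 0.107). *Birc5* followed with 2.47 ± 0.89, an adjusted p of 0.185 in the edgeR fit. *Bub1*, a kinase of the spindle checkpoint, had 0.901, 1.73, 0.327 and 3.80 CPM and 2.36 ± 0.93, an adjusted p of 0.236 in the edgeR fit. The smallest adjusted p was that of *Top2a*, 0.0516 at a log2 fold change of 2.32 ± 0.54, with both ABL values above both CONT values, and over the 18 alternative settings it passed in 11. *Ccnb1* passed in 7 settings, *Cdk1* in 6 and *Cenpf* in 5. DESeq2 called *Ccnb1*, *Top2a*, *Cdk1*, *Cenpf* and *Birc5*.

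Only 4 members had a negative log2 fold change in this fit, all of them replication members: *Ccne2* (−0.59 ± 0.54), *Mcm4* (−0.48 ± 0.44), *Mcm7* (−0.30 ± 0.39) and *Pcna* (−0.09 ± 0.40), and none passed at an unadjusted p of 0.05. Among the other replication members the log2 fold changes ran from 0.53 for *Gins2* to 1.44 for *Rrm2*. Of the 107 other cell cycle genes tested, 1 passed, the hyaluronan-binding spindle protein *Hmmr*, with 1.20, 4.83, 0.218 and 15.01 CPM and a log2 fold change of 4.10 ± 0.95 (adjusted p = 0.0493 in the edgeR fit).

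**Figure D4:**
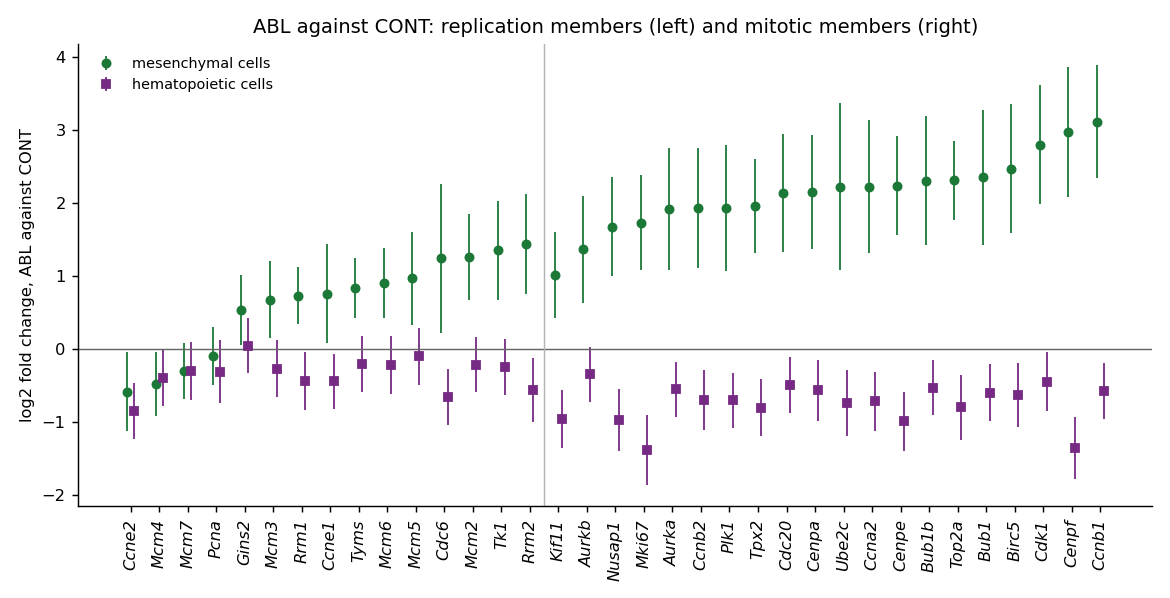
Log2 fold change of each member in ABL against CONT, with bars of 1 standard error from the edgeR fits with the replicate as a block, in mesenchymal cells (green circles) and hematopoietic cells (purple squares). The replication members are on the left and the mitotic members on the right, each ordered by the mesenchymal value. Mitotic members lie between 1.02 and 3.12 in mesenchymal cells and below 0 in hematopoietic cells.

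Reticular-like cells, the class that the reporter was designed to mark, made up 1157, 400, 1969 and 347 of the mesenchymal cells. Their mitotic sum was 150, 103, 18.2 and 75.7 CPM, lower in ABL in replicate 1 and higher in replicate 2. Their replication sum was 182, 180, 145 and 157 CPM. Free RNA at its estimated share gives 94.5%, 84.7%, 70.0% and 26.5% of the mitotic sum. With it taken off, 8.30, 15.7, 5.46 and 55.6 CPM were left, so that at these estimates the direction in replicate 1 turned and ABL lay above CONT in both replicates. In replicate 1 these remainders are small differences of larger values. No spread of the estimated shares is given, so the order of CONT and ABL there is not settled. Reticular-like cells with 3 or more members after thinning were 2.77%, 2.00%, 0.203% and 0.865% of the class.

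Of the members, 29 had enough counts to be tested in reticular-like cells (all but *Bub1*, *Bub1b*, *Aurka*, *Plk1*, *Cenpe* and *Cdc6*), and edgeR called none of them, where 2.97% of 11369 genes were called (1.68% higher and 1.29% lower). At an unadjusted p under 0.05 there were 2 members by edgeR and 2 by DESeq2, which also called none, and the shares of all genes at this limit are not given here. The median log2 fold change was 0.31, with 20 of 29 positive, beside −0.01 over all genes, and it was −0.45 without CONT replicate 2 and 1.34 without CONT replicate 1. The largest were *Cdk1* with 1.86 ± 0.62 and *Top2a* with 0.98 ± 0.56, whose reticular levels were 9.49, 10.8, 0.419 and 9.37 CPM and 7.42, 6.72, 0.991 and 5.77 CPM. In both genes CONT replicate 2 alone stood apart. *Cenpf* (0.93 ± 0.87), at 4.66, 1.68, 0.343 and 4.32 CPM, and *Ccne2* (−0.90 ± 0.49), at 7.08, 2.35, 5.34 and 4.68 CPM, followed. The 9 members below 0, *Ccne2* among them, are otherwise given by their number only, since the direction of most members turned without CONT replicate 2. *Rrm1*, at 15.4, 35.95, 11.2 and 19.1 CPM and with 0.90 ± 0.26, came nearest to the threshold (adjusted p = 0.0596 in the edgeR fit) and passed it in 10 of the 18 alternative settings, and *Cdk1* passed in 7.

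In the ABL libraries the mitotic members were concentrated in cells other than reticular-like ones. In replicate 1, pre-osteoblast-like cells (led by *Wif1* and *Spp1*) had a mitotic sum of 136 CPM in 45 CONT cells and 665 CPM in 88 ABL cells, and these ABL cells were 13.2% of the mesenchymal cells and held 32.2% of the mitotic UMIs. There *Top2a* was at 3.67 CPM in CONT and 57.4 CPM in ABL, and *Cdk1* at 7.34 and 39.6 CPM. The CONT values rest on 1 and 2 UMIs. Cells with 3 or more members were 1 of 45 (2.22%) in CONT and 7.96% in ABL. Free RNA at the share estimated for all mesenchymal cells gives a mitotic sum of 140, 89.4, 12.4 and 22.1 CPM in the 4 libraries. The CONT replicate 1 sums of this class and of the next lie below it. Periosteal or fibroblast-like cells had a mitotic sum of 120.0, 284, 15.04 and 388 CPM, and 3 or more members in 0 of 59 cells (up to 6.06%), 8.25%, 0 of 45 cells (up to 7.87%) and 5.29%. In this class ABL lay above CONT in both replicates, but in replicate 2 the groups sat in different clusters. Without cluster 10, described next (a value added after seeing the data), the other 703 ABL cells of the class had a mitotic sum of 41.0 CPM and 3 or more members in 1.14%, and the cluster led by *Clec3b* and *Mfap5* had 15.2 CPM in 34 CONT cells and 19.4 CPM in 463 ABL cells.

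In replicate 2 a pair of clusters, chosen after their values were seen, held most mitotic UMIs of ABL. Cluster 10, of 91 ABL and 0 CONT cells and led by *C1qtnf3*, *Scx*, *Postn*, *Fabp5*, *Tnn* and *Moxd1*, fell among the periosteal or fibroblast-like clusters. It was 5.04% of the mesenchymal cells of ABL replicate 2 and held 59.0% of their mitotic UMIs, with a mitotic sum of 1994 CPM and a replication sum of 390 CPM. Its leading mitotic members were *Ube2c* at 254 CPM, *Cenpa* at 229 CPM, *Birc5* at 184 CPM, *Cenpf* at 180 CPM and *Top2a* at 169 CPM, and a *Cdk1* UMI was found in 49.5% of its cells. After thinning, 37.4% of its cells expressed 3 or more members. Its median depth of 24380 UMIs was above the 12870 of all mesenchymal cells of the library.

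Cluster 8, with 149 ABL and 31 CONT cells, was led by *Spp1*, *Fabp4*, *Acta2*, *Tagln*, *2810417H13Rik* and *Has2* and had no class name by the marker rule. It held 21.5% of the mitotic UMIs of ABL replicate 2, with a mitotic sum of 811 CPM and a replication sum of 472 CPM, and 280 CPM and 247 CPM in CONT. The share of cells with 3 or more members was 19.5% in ABL and 3.23% in CONT. *Pcna* was at 84.6 CPM, *Rrm2* at 63.6 CPM and *Rrm1* at 56.3 CPM in its ABL cells, above the 54.4, 51.3 and 44.3 CPM of cluster 10, whereas *Aurka* was at 2.94 CPM against 22.4 CPM and *Cdk1* at 33.3 CPM against 136 CPM. The clusters thus differed in the balance of replication and mitotic members, without a test, as each was 1 library. Outside both clusters, the mitotic sum was 18.2 CPM in CONT replicate 2 and 70.9 CPM in ABL replicate 2, and the replication sum 145 and 135 CPM. The clustering had left out the members and other listed cell cycle genes, but *2810417H13Rik* (the PCNA-associated factor *Pclaf*) of cluster 8 and *Cdkn3* of cluster 10 are cell cycle genes that had stayed in.

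**Figure D5:**
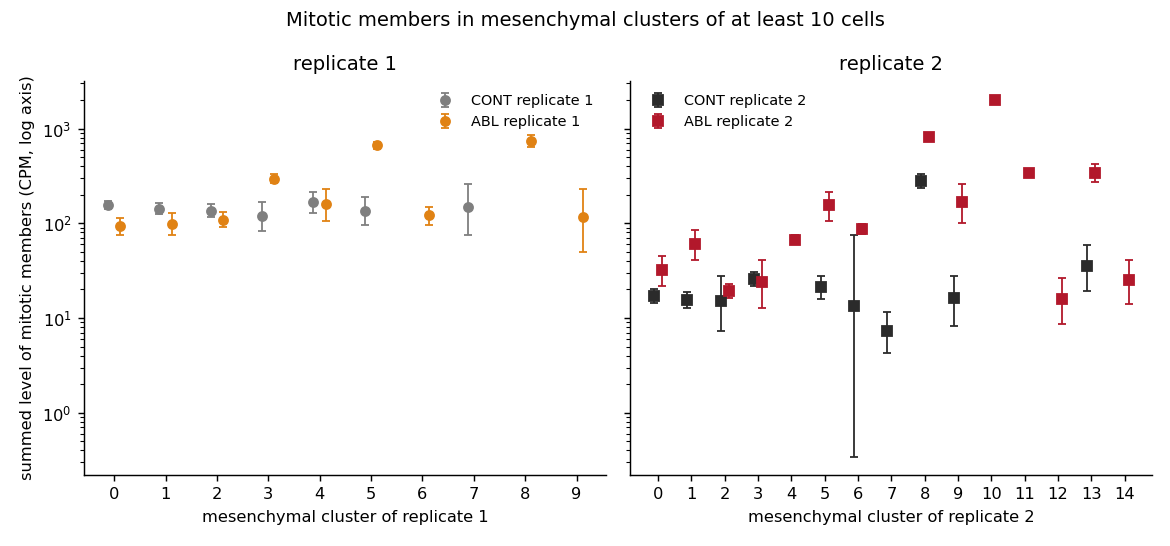
Summed level of the 20 mitotic members in CPM on a log axis in each mesenchymal cluster of replicate 1 (left) and replicate 2 (right) with at least 10 cells and at least 1 mitotic UMI in the library, with 95% exact Poisson intervals. The numbers name clusters of each replicate alone. ABL cells of cluster 10 reach 1994 CPM and those of cluster 8 reach 811 CPM in replicate 2, while in replicate 1 ABL cells of cluster 5 (pre-osteoblast-like) reach 665 CPM and the 15 ABL cells of cluster 8 (chondrocyte-like) 738 CPM.

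Osteoblast-like cells, the mature bone-forming class, had mitotic sums of 121 CPM in the 60 cells of ABL replicate 1 and 15.9 CPM in the 49 cells of ABL replicate 2, with 3 or more members in 6.67% and in 0 cells (up to 7.25%). Free RNA at the share estimated for all mesenchymal cells gives 89.4 and 22.1 CPM there, so the sums are near that level. Chondrocyte-like cells were too few in CONT (8 and 1 cells) for a comparison, though the 8 cells held 21.8% of the mitotic UMIs of CONT replicate 1, at a mitotic sum of 2271 CPM. Their 15 and 72 ABL cells had mitotic sums of 738 and 342 CPM. Pericyte or smooth muscle-like cells numbered 9, 9, 4 and 8, too few for a comparison, with mitotic sums of 232, 2127, 27.0 and 69.0 CPM. The 9 of ABL replicate 1 held 9.72% of the mitotic UMIs of its mesenchymal cells. Among the mesenchymal cells with 3 or more members, those with more mitotic than replication members were 17 of 35, 18 of 31, 1 of 5 and 63 of 85. *Cxcl12* stood at 14270, 3096, 11860 and 295 CPM in these cells and at 15590, 9410, 16650 and 1893 CPM in the others, lower in cells with 3 or more members in each library. A *Ptprc* UMI, the marker of all leukocytes, was found in 8.57%, 6.45%, 0% and 2.35% of the cells with 3 or more members and in 5.67%, 6.11%, 1.03% and 1.63% of the others. Scrublet marked none of the former and 0%, 0.157%, 0.0489% and 0.582% of the latter as doublets. At rates this low, finding none among the former does not tell the groups apart. How many cells reached 3 members through free RNA or counting scatter was not tested, and in CONT replicate 1 most, 25 of 35, held exactly 3.

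In hematopoietic cells most members had lower levels in ABL. The mitotic sum had ABL to CONT ratios of 0.801 and 0.420 and the replication sum 0.981 and 0.735. In replicate 1, 12 of 35 members were higher in ABL (median ratio 0.926), and in replicate 2, 2 of 35 (median ratio 0.623). In both replicates 22 members were lower in ABL, 16 mitotic and 6 replication members, and 18 members were lower in ABL hematopoietic and higher in ABL mesenchymal cells in both replicates. The shares of all genes with these directions are not given here.

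The edgeR fit over 11931 genes called 1 member, *Cenpf*, lower in ABL, where 2.67% of all genes were called lower, 3.84% higher and 6.51% either way. Its levels were 71.7, 45.4, 321 and 92.4 CPM, lower in ABL in both replicates, though the ABL value of replicate 2 was above the CONT value of replicate 1. It fell by 1.35 ± 0.42 on the log2 scale (adjusted p = 0.0266 in the edgeR fit), DESeq2 also called it alone, and no member was called when any 1 library was left out. The median log2 fold change of the 35 members was −0.57 (−0.30 for the replication and −0.70 for the mitotic members) beside −0.04 over all genes, and 34 of 35 were negative. Without CONT replicate 2 the median was −0.25, without ABL replicate 2 −0.31 and without CONT replicate 1 −0.34.

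*Mki67* (chr7:135689784-135716361, minus strand) had 134, 110, 1198 and 255 CPM, so that CONT replicate 2 alone was high, and its log2 fold change was −1.39 ± 0.48 (adjusted p = 0.0575 in the edgeR fit) and 0.03 without that library. The motor protein *Cenpe* (31.3, 29.0, 167 and 54.6 CPM), *Nusap1* (120, 110, 251 and 84.4 CPM) and the spindle motor *Kif11* (32.4, 30.3, 161 and 54.1 CPM) had log2 fold changes of −0.995, −0.97 and −0.96 that did not pass. *Gins2* was the only member with a positive value (0.05 ± 0.38), at 25.0, 29.6, 22.7 and 24.3 CPM. Of the 107 other cell cycle genes, 6 were lower, among them *Aspm* (−1.43), *Kif4* (−1.41), *Anln* (−1.27), *Kif18a* (−1.25) and *Ect2* (−1.23), genes of the spindle and of cytokinesis. The makeup of the hematopoietic cells differed between libraries: erythroid-like cells were 467 of 2046, 146 of 728, 64 of 327 and 45 of 614, and the part of this makeup in the lower levels was not tested.

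The difference of the ABL effect between lineages was tested itself, as a lineage by condition term. Of 35 members, 33 had a larger log2 fold change in mesenchymal than in hematopoietic cells, with a median difference of 2.61 beside −0.02 over all genes. The edgeR test called 0 members and 0% of 13601 genes, with 21 members at an unadjusted p under 0.05, and DESeq2 called 8 members (*Cenpf*, *Ccnb1*, *Top2a*, *Cdk1*, *Cenpe*, *Birc5*, *Mki67* and *Cenpa*). Shares of all genes are not given for the unadjusted and the DESeq2 count, so these do not set the members apart from other genes. The largest differences were those of *Cenpf* (4.33 ± 1.35), *Ccnb1* (3.63 ± 0.90), *Cenpe* (3.39 ± 0.94), *Bub1* (3.31 ± 0.98) and *Cdk1* (3.23 ± 0.97), each with an adjusted p from 0.379 to 0.397 in the edgeR fit. *Mcm4* (−0.08 ± 0.30) and *Mcm7* (−0.00137 ± 0.24) were the members without a positive difference. Without CONT replicate 2 the median difference was 1.00, and without ABL replicate 2 it was 1.92.

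Sequence upstream of the transcription start was compared between the replication and mitotic members, since the latter varied most across the mesenchymal libraries. RefSeq (GRCm38.p6) gave promoters for 29 of the 35 members, 30 promoters in all, of which the 250 bases before the start were read. Shown are the mitotic genes *Ccnb1*, *Cdk1* and *Top2a*, which had the largest or best supported mesenchymal changes, and the replication genes *Mcm6* and *Pcna*, each 5′ to 3′ on the strand of the gene. Capitals mark matches, on either strand, to the core of the cell cycle genes homology region (TTTGAA or TTCAAA), the CCAAT box (CCAAT or ATTGG) and the E2F site (TTTNNCGC with N being C or G), and overlapping matches run together.
Ccnb1 (chr13:100786487-100786736, minus strand): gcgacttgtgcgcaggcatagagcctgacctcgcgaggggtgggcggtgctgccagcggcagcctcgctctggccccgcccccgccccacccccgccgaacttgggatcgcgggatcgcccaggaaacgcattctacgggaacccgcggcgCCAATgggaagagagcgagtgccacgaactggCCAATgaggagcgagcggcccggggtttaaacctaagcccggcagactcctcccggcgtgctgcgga
Cdk1 (chr10:69352913-69353162, minus strand): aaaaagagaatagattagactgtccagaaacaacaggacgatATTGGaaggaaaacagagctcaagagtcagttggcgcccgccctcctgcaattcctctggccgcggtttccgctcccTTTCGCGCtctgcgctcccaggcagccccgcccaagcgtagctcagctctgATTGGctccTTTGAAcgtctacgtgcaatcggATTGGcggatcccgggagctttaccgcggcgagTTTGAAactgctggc
Top2a (chr11:99024190-99024439, minus strand): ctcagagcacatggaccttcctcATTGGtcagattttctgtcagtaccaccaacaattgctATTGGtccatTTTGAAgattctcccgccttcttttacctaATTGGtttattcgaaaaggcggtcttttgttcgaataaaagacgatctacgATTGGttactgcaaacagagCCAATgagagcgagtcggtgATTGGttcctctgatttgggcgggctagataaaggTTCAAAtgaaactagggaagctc
Mcm6 (chr1:128359706-128359955, minus strand): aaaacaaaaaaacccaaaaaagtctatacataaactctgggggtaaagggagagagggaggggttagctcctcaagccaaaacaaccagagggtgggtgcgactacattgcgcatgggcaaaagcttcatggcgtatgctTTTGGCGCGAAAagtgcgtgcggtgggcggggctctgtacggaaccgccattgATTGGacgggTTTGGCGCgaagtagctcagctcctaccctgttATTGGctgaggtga
Pcna (chr2:132253181-132253430, minus strand): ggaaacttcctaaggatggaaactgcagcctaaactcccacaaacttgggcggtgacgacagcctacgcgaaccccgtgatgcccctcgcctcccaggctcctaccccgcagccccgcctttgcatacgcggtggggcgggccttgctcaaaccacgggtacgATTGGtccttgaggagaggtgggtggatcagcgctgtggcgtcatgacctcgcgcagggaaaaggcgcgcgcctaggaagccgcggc

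TTTGAA was found upstream of 7 of 17 mitotic promoters (41.2%) and of 1 of 13 replication promoters (7.7%), beside 16.0% of all 32851 promoters of the same length. CCAAT was found in 15 of 17 (88.2%), 9 of 13 (69.2%) and 33.8%. The E2F site was found in 1 of 17 (5.9%), 4 of 13 (30.8%) and 1.9%. TTTGAA and CCAAT together were found in 41.2% of mitotic, 7.7% of replication and 5.5% of all promoters. *Cdk1*, shown above, held all 3 motifs, *Top2a* held TTTGAA and CCAAT, and *Ccnb1* and *Pcna* held CCAAT alone. *Mcm6* held CCAAT and 3 E2F matches, of which those 110 and 106 bases before the start overlap on opposite strands. These matches describe letters in the windows, and no binding was measured. The annotated starts of RefSeq and of the GENCODE M21 models, from which the gene positions are taken, differ by 134 bases for *Pcna*, 84 for *Ccnb1*, 41 for *Mcm6* and 26 for *Cdk1*. The last 134, 84 and 26 bases of the windows of *Pcna*, *Ccnb1* and *Cdk1* lie inside the GENCODE gene. This takes in the *Pcna* CCAAT match 87 bases and the nearer *Ccnb1* CCAAT match 67 bases before the RefSeq start. It also takes in the nearer *Cdk1* TTTGAA match, 15 bases before that start.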

How the data were processed

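The 4 single-cell 3′ libraries were read as raw counts of UMIs for 28006 features over all barcodes, as the authors deposited them. Per the labels, the submitters' processing notes name Cell Ranger, Seurat and the mm10 build, and versions are not given in the sources used here. Barcodes were taken as cells by the limits of the study (v2 libraries, 500 genes or more and 20% mitochondrial UMIs or less, and v3 libraries, 1000 genes and 15%). A UMI minimum was added here, the 99th percentile over the 3000 largest barcodes divided by 10. This left 3433, 1459, 2404 and 2537 cells with 56.7% to 85.3% of all UMIs. The study's filter alone gave 4809, 1768, 2478 and 2720.

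Cells were clustered in Seurat 5.3.0 (R 4.3.3, 2000 variable genes, 30 components, 20 neighbours, resolution 0.8). The clustering left out 224 cell cycle genes and, in addition, the reporter transcripts, and mesenchymal cells were integrated within each replicate. Clusters were named "-like" from 125 listed markers, of which 123 were found, by a score of 0.25, a margin of 0.1 and at least 3 markers detected in 10% of cells, thresholds set after the data were seen. Rebuilt names may differ from those of the study. The members and lists were chosen with earlier results of these data known. Genes named are the 5 members of each subgroup with the highest mean mesenchymal level, *Ccne1*, *Ccne2*, *Cdc6* and *Gins2*, and in each fit the members called, the 5 with the largest change and those against the majority. Of the other cell cycle genes they are the 5 called with the largest change and the same direction in both replicates. Further names were chosen after their values were seen.

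UMIs were summed per library and lineage or class and tested with edgeR 4.0.16 (quasi-likelihood, TMM, filterByExpr) with the replicate as a block and Benjamini-Hochberg adjustment over all genes at 0.05. DESeq2 1.42.0 was an alternative. Standard errors are the log2 fold change over the root of F. Tests and standard errors use a spread that edgeR moderates over all genes. With few residual degrees of freedom they mostly do not measure the spread of the single gene. Same-numbered libraries share the chemistry, and their deviations correlated (0.42 in mesenchymal, 0.70 in reticular-like and 0.53 in hematopoietic cells), and the block left 1 residual degree of freedom (3 in the lineage fit, with the library as block). An exact permutation test of 2 against 2 libraries cannot go below p = 0.333. On simulated counts with 200 genes changed by 2 on the log2 scale, the fits recovered 80 (mesenchymal), 184 (reticular-like), 155 (hematopoietic), 189 (lineage) and 89 (difference of effects). False calls were 2.44%, 4.66%, 7.19%, 4.06% and 6.32% of the genes called, in the same order, against the limit of 0.05.

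Free RNA was read from droplets with at most 300 UMIs, and its share was the median over 8 markers of the other lineage. Intervals cover counting error only. Gene positions are from GENCODE M21 (GRCm38) and promoters from RefSeq (GRCm38.p6). Figures were drawn with matplotlib 3.10.9.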

Additional observations from a re-analysis of the deposited data

Results flagged for a closer look

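The ABL to CONT ratio of the summed levels lay on opposite sides of 1 in the lineages in both replicates. For the mitotic members the mesenchymal ratios were 1.416 and 13.45 in replicates 1 and 2, and the hematopoietic ratios 0.8009 and 0.4198. For the replication members the mesenchymal ratios were 1.172 and 1.264 and the hematopoietic ratios 0.9807 and 0.7351. With the estimated free RNA taken off, the hematopoietic replication ratio of replicate 1 was 1.03 and the other ratios stayed on their side of 1. The difference of these sums was not tested, and the test of single genes called 0 members by edgeR, with 21 at an unadjusted p under 0.05, and 8 by DESeq2. For the unadjusted and the DESeq2 count the shares of all genes are not given.

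Endothelial-like cells entered no comparison. In replicate 2 their mitotic sum was 24.53 CPM in 25 CONT cells and 627.4 CPM in 119 ABL cells. Their replication sum was 289.4 and 441.2 CPM. The CONT mitotic sum has an exact Poisson interval of 11.76 to 45.11 CPM. Free RNA gives 12.4 CPM in the mesenchymal cells of that library. After thinning, 3 or more members were held by 0 of the CONT cells (exact binomial interval up to 13.7%). Of the ABL cells 5.88% held them (2.40% to 11.7%). These intervals overlap, and sex and condition cannot be told apart in replicate 2. In replicate 1 endothelial-like cells were named in CONT alone, with 304.7 CPM of mitotic and 362.9 CPM of replication members in 88 cells. There 6.82% held 3 or more members. A cluster of 48 cells in ABL replicate 1, led by *Jchain*, *Ccl5* and *Gzma*, had no lineage name. *Ctla2a* and *Cldn5* were among its leading genes, as in the endothelial-like cluster of CONT, and the part of endothelial cells in it was not tested.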

How the results depend on the processing

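With 2 libraries a group and 1 residual degree of freedom in the blocked fits of ABL against CONT and of the difference of effects (3 in the lineage fit), calls of single members moved with most settings, and the cause was not tested. Shares of all genes called are not given for the alternative settings, so a higher count of members can go with more calls among all genes. In mesenchymal cells, where 0 members were called, the count was 5 with DESeq2, 6 without TMM, 7 with cells taken by the filter of the study only, 17 after subtraction of free RNA, 3 after thinning to 2000 UMIs, 1 at resolution 0.4, and 2 each without Scrublet doublets, with all variable genes in the clustering, in cells with a *tdTomato* UMI and without cells with a *Ptprc* UMI. Leaving out 1 library gave 0 to 3. In reticular-like cells, with 0 called, it was 3 after subtraction of free RNA, 2 each without TMM, with the stricter filter, without doublets, at resolution 1.5 and without cells with a *Ptprc* UMI, and 1 each without the filter on low counts, with the study's filter, with all variable genes, at resolution 0.4 and with *tdTomato* UMIs. In hematopoietic cells, with 1 called, it was 0 without TMM, without the filter on low counts, with the stricter filter, after subtraction of free RNA, after thinning and without any 1 library (0 to 0), and 2 with all variable genes and at resolution 0.4.

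The fits without the replicate block called 0 members in mesenchymal cells (5 at an unadjusted p under 0.05, median log2 fold change 1.11), 0 in reticular-like cells, 0 in place of 1 in hematopoietic cells, 35 between lineages and 0 for the difference of effects. Fits without 1 library have no block. The difference of effects, with 0 called, gave 8 with DESeq2 and 2 after thinning. The lineage difference gave 27 to 35 without 1 library, 31 after subtraction of free RNA, and 34 each with the filter of the study, without doublets and with all variable genes. The share of cells with 3 or more members, as ABL minus CONT averaged over replicates, was 7.604 percentage points without thinning in mesenchymal cells (14.64 in replicate 1 and 0.5635 in replicate 2), against 3.19 with it (1.914 to 4.468). In hematopoietic cells it was −0.3681 without thinning, with replicates of opposite sign (−5.529 and 4.793), against −6.74 with it (−9.105 to −4.37).

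The sign of some log2 fold changes turned. Over fits without 1 library, *Mcm4* in mesenchymal cells ran from −0.9484 to 0.03578, and in reticular-like cells *Cdk1* ran from −0.01255 to 4.406, *Top2a* from −0.3441 to 2.50 and *Cenpf* from −0.7239 to 2.95. In hematopoietic cells *Mki67* ran from −2.581 to 0.03126, *Cenpe* from −1.843 to 0.0298, *Kif11* from −1.765 to 0.0009658 and *Gins2* from −0.3106 to 0.487. The positive ends of *Mcm4*, *Mki67*, *Cenpe* and *Kif11* and the negative ends of *Cdk1*, *Top2a* and *Cenpf* were reached without CONT replicate 2. *Gins2* was also −0.06536 after subtraction of free RNA and −0.2099 after thinning. For the difference of effects, *Mcm4* ran from −0.2633 to 0.1173 without 1 library and was 0.04861 with DESeq2, 0.07773 after subtraction of free RNA and 0.1146 after thinning. *Mcm7* ran from −0.1482 to 0.2021 and was 0.1152 with DESeq2, 0.02427 without the filter, 0.02202 without doublets, 0.1493 after subtraction of free RNA, 0.03292 with all variable genes, 0.01437 at resolution 0.4 and 0.01409 at resolution 1.5.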
